A study of Mus musculus with 12 samples.

Results

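The HoxB cluster of the mouse was followed through the peak lists of 8 chromatin immunoprecipitation (ChIP-seq) libraries from mouse embryonic fibroblasts (MEFs). It was taken as every listed peak that overlapped chromosome 11 from 96000000 to 96250000 (build mm9), with the Hoxb13 side at the lower and the Hoxb1 side at the higher coordinates. This rule found 188 of the 128880 peaks in the 8 lists, 130 of them for trimethylated lysine 27 of histone H3 (H3K27me3) and 58 for trimethylated lysine 4 (H3K4me3). The cluster has 10 Hox genes, Hoxb1 to Hoxb9 and Hoxb13. No mm9 gene annotation was used, so the marks are given by position and not gene by gene, and the MEF label was not checked against fibroblast marker genes.

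Hox genes encode homeodomain transcription factors that give cells their position along the body axis, and within a cluster they lie in the order in which they act from head to tail. Hoxb1 patterns a segment of the hindbrain, Hoxb4 and Hoxb8 are also known for their roles in blood progenitors, and Hoxb13, set apart from the rest, acts in the tail end of the body and the prostate. Polycomb repressive complex 2 lays H3K27me3 over Hox clusters where their genes are silent. H3K4me3 marks gene starts that are active or poised, and places that carry both marks are called bivalent. A peak list made from a population of cells cannot tell 1 allele with both marks from a mixture of cells.

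Primary MEFs of a hybrid 129/B6 background were either wild type (WT, lincRNA-p21+/+) or knockout (KO, lincRNA-p21-/-) for lincRNA-p21, a long noncoding RNA induced by p53. Each genotype was mock treated or given doxorubicin, a drug that damages DNA, at a labelled 0.5 mM for 24 h, and whether that unit is a slip is not known. Each of these 4 conditions had 1 library per mark. The labels used here do not say how the knockout allele was made or how many embryos the cultures came from. No spread between replicates exists, so every difference below compares 2 libraries, and no p-value was computed. Read depth per library is unknown, because the lists hold positions and scores only.

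In the mouse annotation, read on its own build GRCm38.p6 for order alone, the genes ordered by their lower coordinate are Hoxb13, Hoxb9, Hoxb8, Hoxb7, Hoxb6, Hoxb5, Hoxb3, Hoxb4, Hoxb2 and Hoxb1. The microRNA gene Mir196a-1 lies between Hoxb13 and Hoxb9, and Mir10a lies between Hoxb5 and Hoxb4. Promoter sequences from RefSeq (GRCm38.p6) matched 3 of the 10 genes, Hoxb1, Hoxb4 and Hoxb8. They are shown because both marks are known from gene starts rich in CG dinucleotides, which are in capitals. Each is the 250 bases before the start on the + strand, 5′ to 3′, and its position cannot be set against the mm9 positions of the peaks.
Hoxb8, GRCm38.p6 chr11:96281655-96281904: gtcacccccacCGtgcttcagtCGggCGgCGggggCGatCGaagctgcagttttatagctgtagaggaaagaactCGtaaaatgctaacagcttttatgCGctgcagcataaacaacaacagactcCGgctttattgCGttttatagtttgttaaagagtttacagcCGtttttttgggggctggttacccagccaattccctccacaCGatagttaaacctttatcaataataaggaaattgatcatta
Hoxb4, GRCm38.p6 chr11:96318017-96318266: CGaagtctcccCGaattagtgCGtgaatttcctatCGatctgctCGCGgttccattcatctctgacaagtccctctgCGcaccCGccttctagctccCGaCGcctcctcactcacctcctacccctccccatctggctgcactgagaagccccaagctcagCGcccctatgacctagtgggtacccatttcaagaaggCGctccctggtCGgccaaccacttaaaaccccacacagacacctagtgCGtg
Hoxb1, GRCm38.p6 chr11:96365508-96365757: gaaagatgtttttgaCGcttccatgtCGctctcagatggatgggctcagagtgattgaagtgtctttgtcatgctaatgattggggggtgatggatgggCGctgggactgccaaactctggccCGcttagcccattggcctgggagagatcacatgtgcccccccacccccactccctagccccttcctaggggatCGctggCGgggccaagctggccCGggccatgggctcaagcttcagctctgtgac
Hoxb8 had 12 CG in these bases, Hoxb4 had 14 and Hoxb1 had 7, against a median of 6 over 32851 promoters of the same length, of which 92.1% held at least 1 CG. The motif reads the same on both strands. Fewer CG than in Hoxb4 were found in 70.6% of those promoters, and fewer than in Hoxb1 in 53.7%.

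In 3 of the 4 libraries H3K27me3 peaks lay along the HoxB window from the Hoxb13 side to the Hoxb1 side, with gaps. In the mock WT library they broke off in the middle. Peaks covered 120.4 kb of the 250-kb window in mock WT cells, 168.3 kb in doxorubicin WT cells, 188.5 kb in mock KO cells and 138.4 kb in doxorubicin KO cells. The mock WT library, the lowest here, had the longest H3K27me3 coverage over the whole genome, 48.0 Mb, where the others had 35.9 to 39.0 Mb. The window held 0.251% of all H3K27me3 coverage in mock WT, 0.432% in doxorubicin WT, 0.520% in mock KO and 0.385% in doxorubicin KO cells.

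**Figure D1:**
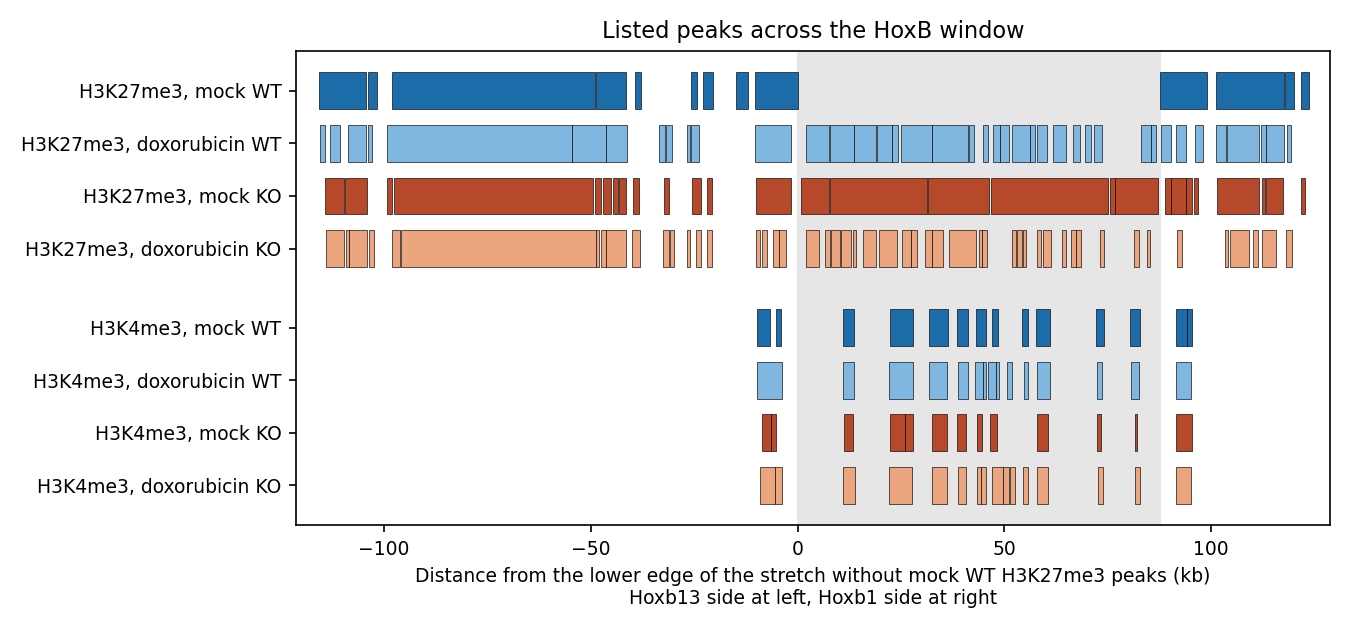
Every listed peak of the HoxB window, 1 row per library, with the distance in kb from the lower edge of the stretch without mock WT H3K27me3 peaks on the x axis and the stretch in grey. The H3K27me3 row of mock WT is empty across the grey stretch, the other 3 H3K27me3 rows are filled to 53.4 to 96.9%, and the H3K4me3 peaks lie in or beside the stretch in all 4 rows.

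The break ran from 96121286 to 96208980, 87.7 kb between 2 neighbouring mock WT peaks. Its edges were set from the mock WT list, so the 0 kb covered there in mock WT is a description and not a finding. In the other libraries, which did not set the edges, peaks covered 85.0 kb (96.9%) in mock KO, 64.0 kb (73.0%) in doxorubicin WT and 46.8 kb (53.4%) in doxorubicin KO cells. The order was mock KO, doxorubicin WT, doxorubicin KO and mock WT, and without replicates it cannot be said which neighbours in that order differ beyond the spread between cultures.

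The mock WT peaks on either side of the stretch had high scores within their list. A peak's score is the authors' value, -10 times the log10 of the p-value, and it is given here as a percentile within its own list, since scores of different lists do not share a scale. The peak on the Hoxb13 side ran from 96110949 to 96121285, scored 1137.88 and lay at the 95.1 percentile. The peak on the Hoxb1 side ran from 96208981 to 96220285, scored 1014.27 and lay at the 94.0 percentile. Both reached further towards the stretch than any peak at these places in the other libraries, where the lower peak ended at 96119724 in doxorubicin WT, 96119649 in mock KO and 96118590 in doxorubicin KO cells.

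The peaks are numbered in order of position, and the lists leave out numbers. In mock WT the 2 flanking peaks have the neighbouring numbers 3964 and 3965, so that no number is missing inside the stretch. In the doxorubicin WT list 26 numbers fall there, of which 20 are listed and 6 are missing. In mock KO 7 numbers fall there, of which 6 are listed, and in doxorubicin KO 33, of which 25 are listed. Along chromosome 11 as a whole 37.0% of the numbers are missing in the mock WT list and 43.7 to 44.5% in the other H3K27me3 lists. The stretch therefore held no numbered mock WT peak that had been left out of the list. Whether reads were enriched there without a peak being called was not tested, since reads were not analysed here.

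The 3 libraries with peaks in the stretch also differed in how the mark was divided. In mock KO cells 6 peaks made up the 85.0 kb, with a median width of 12588 bp. The longest of them ran 28367 bp, from 96168054 to 96196420. The highest-scoring ran from 96198054 to 96208469, at the 97.0 percentile of its list. In doxorubicin WT cells there were 20 peaks with a median width of 2263 bp and a widest of 8787 bp, and the peak from 96146259 to 96153836 had the highest score, at the 95.6 percentile. In doxorubicin KO cells there were 25 peaks with a median width of 1286 bp, and the widest, from 96157840 to 96164373, was also the highest-scoring at the 90.3 percentile. Joining peaks less than 3 kb apart brought the stretch to 1 block of 87.7 kb in mock KO, 2 blocks of 76.1 kb in doxorubicin WT and 4 blocks of 65.5 kb in doxorubicin KO cells, and left mock WT at 0 kb.

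Within the stretch, both doxorubicin libraries were covered more fully towards the Hoxb13 side. The region from 96122223 to 96167490, the lower part of the stretch, was covered for 45152 bp in mock KO, 40280 bp in doxorubicin WT and 34414 bp in doxorubicin KO cells. The next region, from 96168054 to 96196420, was covered for 28367 bp, 20199 bp and 10409 bp in the same order. The last, from 96198054 to 96208469, was covered for 10416 bp in mock KO, 3505 bp in doxorubicin WT and 1996 bp in doxorubicin KO cells. The outer edges of these 3 regions are those of mock KO peaks. The regions starting at 96168054 and 96198054 are each 1 mock KO peak, so their full coverage in mock KO follows from how regions were joined. Between the last of these regions and the one before it lay a 1031-bp region, from 96196960 to 96197990, listed in mock KO alone. Of the 3 larger regions, the one at the upper edge had the smallest share covered in both doxorubicin libraries.

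Outside the stretch the 4 libraries were closer, and mock WT had the longest H3K27me3 coverage, as it had over the whole genome. Peaks there covered 120.4 kb in mock WT, 104.3 kb in doxorubicin WT, 103.6 kb in mock KO and 91.6 kb in doxorubicin KO cells. As a share of all H3K27me3 coverage of a library, mock WT was not the highest on each side. The Hoxb13 side of the stretch held 0.185% in mock WT, 0.209% in doxorubicin WT, 0.22% in mock KO and 0.22% in doxorubicin KO cells. Its Hoxb1 side held 0.0664%, 0.0588%, 0.0654% and 0.0348% in the same order. The widest domain of the window, from 96021946 to 96080039 on the Hoxb13 side, was covered for 56508 bp in mock WT, 57875 bp in doxorubicin WT, 55732 bp in mock KO and 55724 bp in doxorubicin KO cells. A single peak made up most of it in each list. That peak was 44.7 kb wide in doxorubicin WT and 47.9 kb in mock KO cells, the widest H3K27me3 peak of either list, and 49.1 kb in mock WT cells, where it ranked 2, and 47.1 kb in doxorubicin KO cells, where it ranked 3. This domain held no H3K4me3 peak in any of the 4 lists.

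Between this domain and the stretch the mark was patchy. Short regions from 96081263 to 96109392 were 869 to 2977 bp long, apart from 1 of 3644 bp, and only the one from 96095536 to 96097969 was present in all 4 lists. The region from 96106416 to 96109392 was listed in mock WT alone, at the 66.0 percentile. Next to the stretch, the region from 96110949 to 96121285 was covered for 10337 bp in mock WT, 8687 bp in doxorubicin WT, 8524 bp in mock KO and 5519 bp in doxorubicin KO cells.

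On the Hoxb1 side doxorubicin KO cells had the least H3K27me3. The region from 96208981 to 96220285 was covered for 11305 bp in mock WT, 6687 bp in doxorubicin WT, 7555 bp in mock KO and 1221 bp in doxorubicin KO cells. The region from 96222507 to 96238929 was covered for 16387 bp, 15300 bp, 15129 bp and 9944 bp in the same order, and its highest peak lay at the 93.4 to 97.2 percentile of each list. Over the whole window, H3K27me3 regions listed in both libraries were shorter in doxorubicin KO than in mock KO cells at 9 of 12, beside 53.8% in the series. The median length ratio was 0.71, beside 0.98 in the series. They were shorter than in doxorubicin WT cells at 10 of 13, beside 58.8%, with a ratio of 0.76 beside 0.94. Against mock WT, doxorubicin WT was shorter at 6 of 8, beside 73.6%, with a ratio of 0.77 beside 0.84. Mock KO was shorter than mock WT at 8 of 9, beside 78.1%, with a ratio of 0.85 beside 0.80. Over the 41.0 kb from the stretch to the end of the window, coverage was 77.6% in mock WT, 55.9% in doxorubicin WT, 57.8% in mock KO and 30.5% in doxorubicin KO cells.

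**Figure D2:**
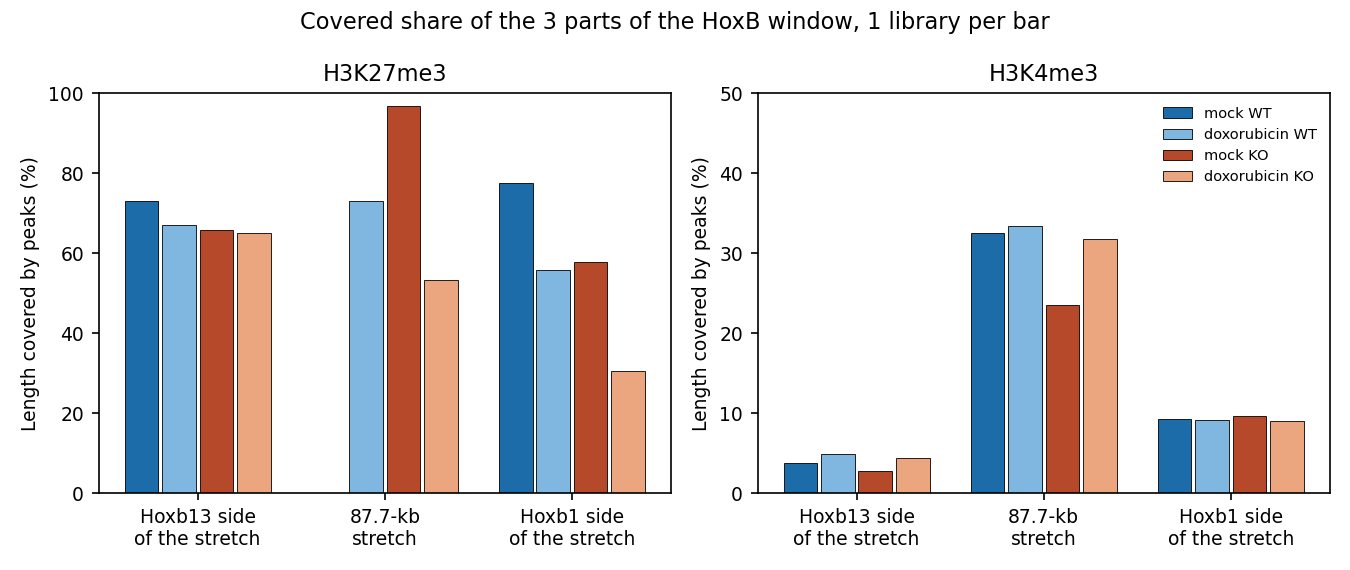
Share of length covered by peaks (y axis, percent) on the Hoxb13 side of the stretch, in the stretch and on its Hoxb1 side, for H3K27me3 at left and H3K4me3 at right, with 1 library per bar and no error bars. H3K27me3 differs most between libraries in the stretch, from 0 to 96.9%, and H3K4me3 is lowest in mock KO there, at 23.5%.

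Bins of 10 kb set the stretch beside the rest of the genome. A bin was tested where at least 50% of it was covered in either library, and counted where the other library had no covered base. Mock KO against mock WT had 7 such bins with the mark in KO alone among 3326 tested, a background of 0.210%, and all 7 lay in the HoxB window, where 20 bins were tested. Doxorubicin WT against mock WT had 8 with the mark in doxorubicin alone among 3418 tested (0.234%), and 6 of the 8 lay in the HoxB window. Bins wholly inside the stretch had no covered base in mock WT by the choice of the stretch. The counts against mock WT therefore describe that choice and are no test of the window. The other direction had 19 bins (0.571%) and 32 bins (0.936%) in the genome, and 0 in the window. Neither doxorubicin KO against mock KO nor doxorubicin KO against doxorubicin WT, which do not use the mock WT library, had such a bin in the window. Their backgrounds were 0.787% with the mark in doxorubicin KO alone and 0.433% in mock KO alone, and 0.190% in each direction.

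**Figure D3:**
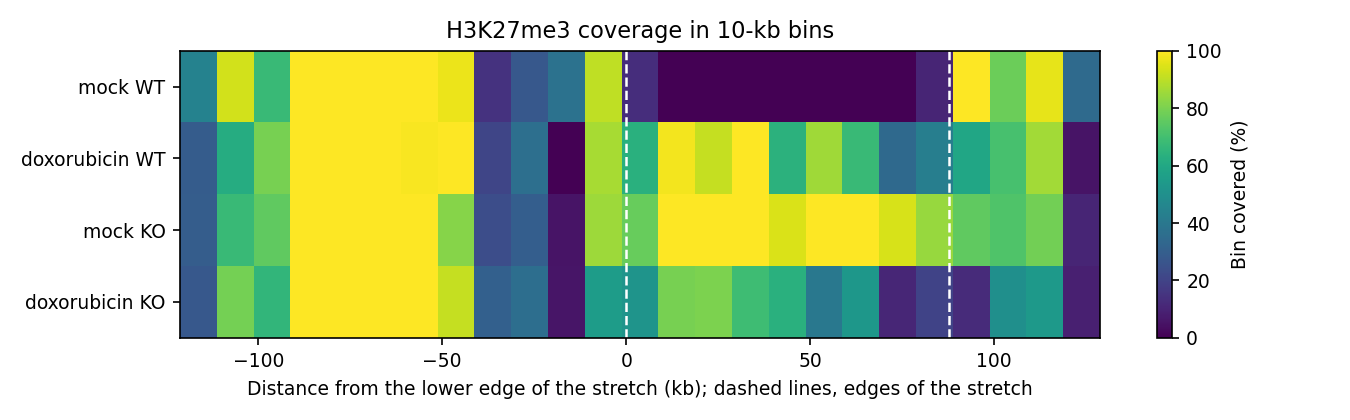
H3K27me3 coverage of each 10-kb bin of the HoxB window (colour, percent), by distance in kb from the lower edge of the stretch (x axis) and by library (rows), with dashed lines at the edges of the stretch. Mock WT bins wholly inside the stretch are at 0%, and 5 neighbouring bins on the Hoxb13 side are at 81.9 to 100% in all 4 libraries.

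Stretches like it were few in these lists. They were counted after the HoxB stretch had been seen, so the count describes the lists and is no test of that stretch. Mock WT had 4204 stretches of at least 50 kb without an H3K27me3 peak between 2 peaks of a chromosome. Just 1 of them (0.0238%) was covered by at least 50% in mock KO, and the same 1 in doxorubicin WT and in doxorubicin KO cells. It was the HoxB stretch. Neither mock KO nor doxorubicin WT had any stretch of this kind against the other 3 libraries. Doxorubicin KO had 1 of 4364 (0.0229%), on chromosome 15 from 102817292 to 102913978, which was covered by 73.6% in mock WT and by 52.4% in mock KO cells. Its flanking peaks lay at the 68.6 and 56.0 percentile of their list, where those of the HoxB stretch lay at 95.1 and 94.0 of theirs, and 7 peak numbers were missing inside it.

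Tiles of 250 kb, of which the HoxB window is 1, compared it with the genome by length. Among the 4362 tiles with H3K27me3 in any library, HoxB ranked 1 by covered length in mock KO and in doxorubicin WT, 2 in doxorubicin KO and 7 in mock WT cells, where tiles had a median of 3.42 to 4.55 kb. Mock KO exceeded mock WT by 68.1 kb at HoxB, and the next largest excess of any tile was 8.5 kb. Doxorubicin WT exceeded mock WT by 47.9 kb, against 29.6 kb for the next tile. In KO cells the difference had the other sign, with a difference of -50.1 kb after doxorubicin, the second most negative of the tiles after one at -74.3 kb. Doxorubicin KO differed from doxorubicin WT by -29.8 kb, again second to one at -35.0 kb. The excesses over mock WT include the stretch, which was set as a gap in the mock WT list, so their ranks are a description.

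**Figure D4:**
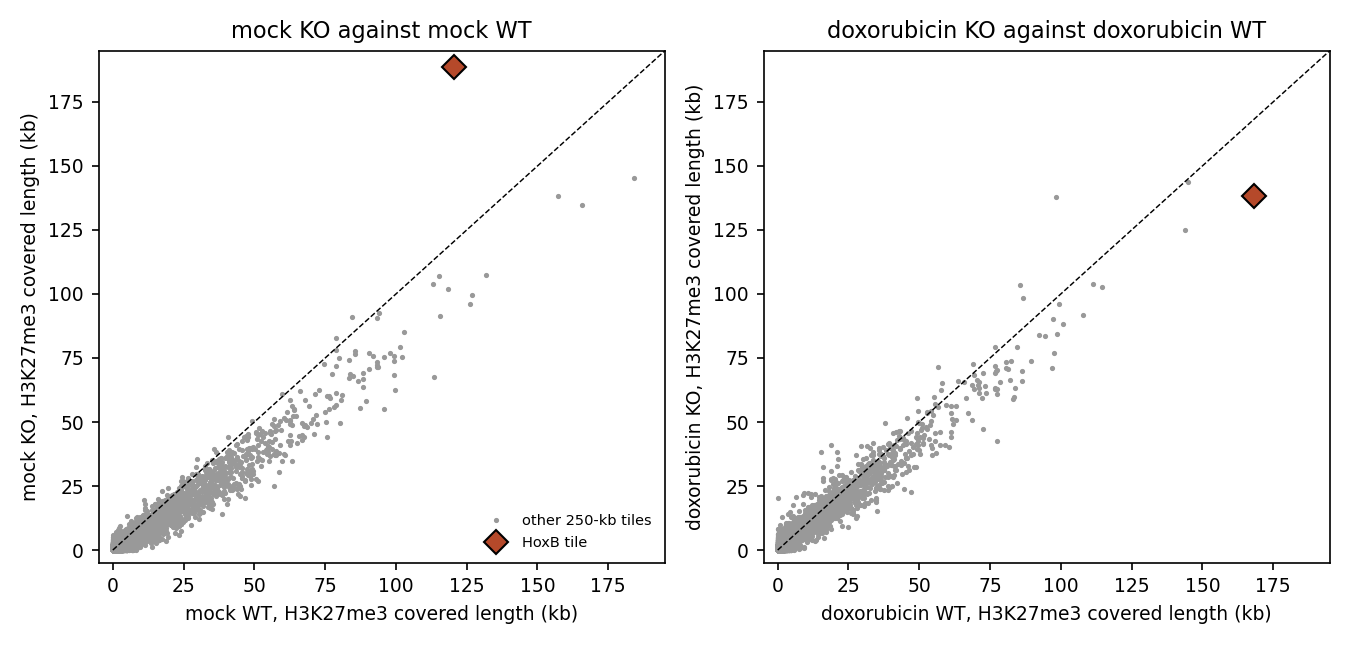
H3K27me3 covered length (kb) of each 250-kb tile in KO against WT cells, mock at left and doxorubicin at right, with the HoxB tile as a diamond and the dashed line marking equal lengths. HoxB lies above the line in mock cells, at a difference of 68.1 kb where the next tile has 8.5 kb, and below it in doxorubicin-treated cells, at -29.8 kb.

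Counts of peaks told less than covered length, because 1 wide peak can face many narrow ones. A peak was counted as gained where the library of comparison had none overlapping it by 1 bp or more, and as lost in the reverse case. Doxorubicin WT had 23 of 40 window peaks without an overlapping mock WT peak, against 29.3% of its whole list, and 20 of the 23 lay in the stretch. Mock KO had 7 of 27 such peaks against mock WT, a share near the 25.5% of its list, but these 7 spanned 86.2 kb. The stretch was set as a gap in the mock WT list, so every peak inside it counts as gained by construction. Outside it, 3 of 20 doxorubicin WT and 1 of 21 mock KO peaks were gained, both below the shares of their lists. Mock WT peaks covered 74.2% of the window outside the stretch, so an overlap of 1 bp was easily met there. Lost peaks were 4 of 13 for doxorubicin WT (35.4% of the mock WT list) and 3 of 13 for mock KO (36.3%), none scoring above 226.53.

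In the comparisons that do not use mock WT, the share of HoxB peaks without a counterpart was below that of the whole lists. Doxorubicin KO had 4 of 50 peaks without an overlapping mock KO peak (35.3% of its list), and 5 of 27 mock KO peaks were lost (34.1%). Against doxorubicin WT, doxorubicin KO had 4 of 50 gained (32.2%) and 8 of 40 lost (35.3%), and the 8 lost peaks spanned 13.1 kb. Mock KO peaks covered 75.4% of the window and doxorubicin WT peaks 67.3%, so an overlap of 1 bp was easily met. The low shares therefore do not show that peaks kept their places. With an overlap of 50%, doxorubicin KO had 4 gained and 10 lost against mock KO. Against doxorubicin WT it had 7 gained and 14 lost. The shares of the whole lists given above are for an overlap of 1 bp, so these counts have no background beside them. In the stretch, doxorubicin KO and mock KO cells differed by -38.1 kb (46.8 against 85.0 kb). This difference went with narrower peaks, 1286 against 12588 bp at the median.

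H3K4me3 was listed at 13 regions, 11 of them in all 4 libraries, and 11 of them inside the stretch. It covered 36.9 kb of the window in mock WT, 38.9 kb in doxorubicin WT, 27.9 kb in mock KO and 36.9 kb in doxorubicin KO cells. In the stretch it covered 28.5 kb, 29.3 kb, 20.6 kb and 27.9 kb in the same order. The mock WT library, with no H3K27me3 peak there, thus had 10 H3K4me3 peaks in the stretch, as many as mock KO. The genome-wide H3K4me3 coverage was also lowest in mock KO, at 27.1 Mb against 29.2 to 33.4 Mb, and HoxB held 0.103% of it there, against 0.111% in mock WT, 0.121% in doxorubicin WT and 0.126% in doxorubicin KO cells.

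The broadest H3K4me3 region inside the stretch lay from 96143469 to 96149280 and was nearly alike in the 4 lists, with 5696 bp in mock WT, 5715 bp in doxorubicin WT, 5620 bp in mock KO and 5560 bp in doxorubicin KO cells. The mock KO list divided it between 2 peaks, and the others gave it as 1. In doxorubicin WT its score lay at the 99.2 percentile, and in the other lists at the 37.7 to 64.6 percentile. A score of exactly 3100 was shared by 6.80 to 33.5% of the peaks of each H3K4me3 list, and 179 to 298 peaks a list scored higher. The doxorubicin KO peak of this region was among those tied at 3100, so its percentile of 64.6 is the lower edge of that tie.

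Some other regions of the stretch showed the shortfall of mock KO cells more clearly. The region from 96152982 to 96157613 was covered for 4460 bp in mock WT, 4440 bp in doxorubicin WT, 3502 bp in mock KO and 3750 bp in doxorubicin KO cells, so that both KO libraries were lower. The region from 96132167 to 96135155 was covered for 2896 bp, 2534 bp, 2121 bp and 2796 bp in the same order. The region from 96178845 to 96182378 had 3417 bp, 3153 bp, 2668 bp and 2739 bp. At the region from 96167326 to 96170919 mock KO was instead longer than mock WT, with 1798 bp against 1608 bp.

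Weak regions of H3K4me3 differed most. The region from 96170928 to 96173802 was listed only after doxorubicin, with 1233 bp in WT and 2746 bp in KO cells, at the 12.5 and 14.7 percentile. The region from 96175686 to 96177131 was listed in mock WT, doxorubicin WT and doxorubicin KO cells with 1161 to 1223 bp, and not in mock KO cells. The region from 96201746 to 96204052 had 2282 bp in mock WT, 2073 bp in doxorubicin WT, 603 bp in mock KO and 1230 bp in doxorubicin KO cells. In each of these the mock KO library had the shortest coverage or shared the lowest value of 0 with mock WT.

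Both ends of the H3K4me3 series lay outside the stretch. The region on the Hoxb13 side, from 96111407 to 96117619, was covered for 4559 bp in mock WT, 5870 bp in doxorubicin WT, 3380 bp in mock KO and 5336 bp in doxorubicin KO cells. Both doxorubicin libraries were higher than both mock libraries there. The region on the Hoxb1 side, from 96212758 to 96216728, hardly differed, at 3785 bp, 3768 bp, 3970 bp and 3706 bp.

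H3K4me3 region lengths at HoxB were set beside those of the whole series. Mock KO was shorter than mock WT at 9 of the 11 H3K4me3 regions listed in both, with a median length ratio of 0.78, beside 85.8% of 13411 regions and 0.85 in the series. Doxorubicin KO was longer than mock KO at 8 of 11, with a ratio of 1.21, beside 1.05 in the series, where 36.3% of 13324 regions were shorter. In WT cells doxorubicin gave a ratio of 0.97 over 12 regions, beside 0.92, and KO against WT under doxorubicin gave 0.94 over 13 regions, beside 0.98. In that last comparison 10 of the 13 (76.9%) were shorter in KO cells, beside 53.9% in the series. By tile, the excess of doxorubicin KO over mock KO at HoxB, 9.0 kb, ranked 3 of 5637 tiles with H3K4me3, and the shortfall of mock KO against mock WT, -9.0 kb, ranked 9 from the most negative.

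At HoxB each comparison had 0 to 3 gained and 0 to 2 lost H3K4me3 peaks, out of 13 to 16 in a list. Doxorubicin WT had 1 of 15 gained against mock WT (8.25% of its list) and 0 of 14 lost (2.21%). Doxorubicin KO had 3 of 16 gained against mock KO (8.84%) and 0 of 13 lost (2.69%). Mock KO had 1 of 13 gained (1.94%) and 2 of 14 lost (9.32%) against mock WT, and doxorubicin KO had 0 of 16 gained (4.41%) and 0 of 15 lost (11.9%) against doxorubicin WT. The window share was above the list share for peaks gained in doxorubicin KO against mock KO (18.8%). It was also above it for peaks gained (7.69%) and lost (14.3%) in mock KO against mock WT. In the rest it was below, and each share rests on 3 or fewer peaks. Each gained or lost peak had a score of 267.79 or less.

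**Figure D5:**
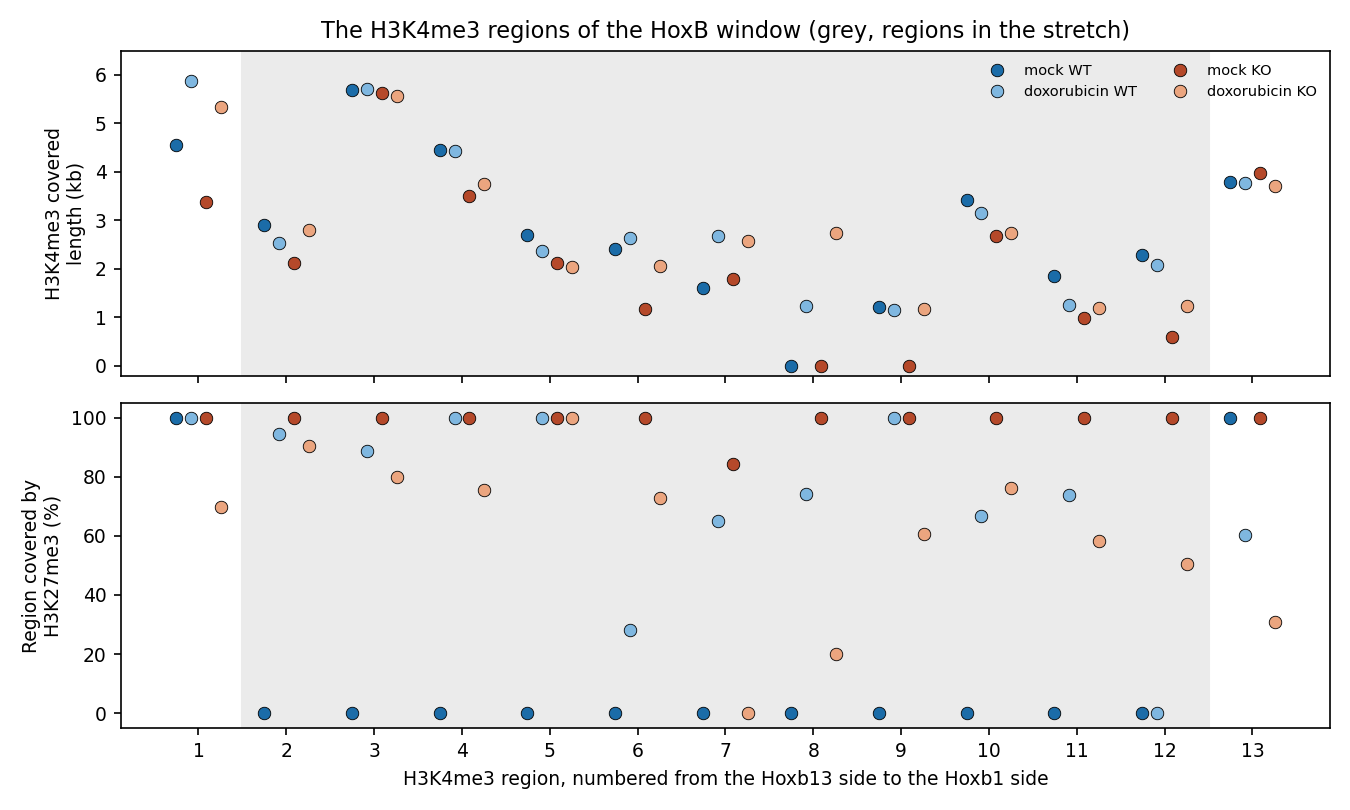
The 13 H3K4me3 regions from the Hoxb13 side to the Hoxb1 side (x axis), with their covered length in kb (upper panel) and the share of the region covered by H3K27me3 in percent (lower panel), 1 point per library and the regions of the stretch in grey. Lengths follow a like profile in the 4 libraries, while the H3K27me3 share in the stretch is 0% in mock WT and 84.3 to 100% in mock KO.

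The share of H3K4me3 that lay under H3K27me3 followed the H3K27me3 lists. In mock WT 4 of 14 H3K4me3 peaks of the window overlapped an H3K27me3 peak, all 4 outside the stretch, and 8.3 kb carried both marks. In mock KO 13 of 13 did, with 27.6 kb, or 98.8% of the H3K4me3 length. In doxorubicin WT 14 of 15 did, with 30.0 kb (77.2%), and in doxorubicin KO 14 of 16, with 23.3 kb (63.2%). Over the whole lists 12.0 to 16.3% of H3K4me3 peaks overlapped H3K27me3, so the HoxB peaks were above that share in each library. In mock WT this rests on 4 peaks beside the stretch. H3K27me3 peaks covered 48.2 to 75.4% of the window, so an overlap of 1 bp was easily met. The higher share therefore does not set the H3K4me3 peaks apart from the rest of the window.

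Places with both marks were not uniform along the cluster. The region from 96159746 to 96162543 was wholly covered by H3K27me3 in doxorubicin WT, mock KO and doxorubicin KO cells. The region from 96167326 to 96170919 was covered by 65.1% in doxorubicin WT and 84.3% in mock KO cells, and by 0% in doxorubicin KO cells. The region from 96201746 to 96204052 was covered by 0% in doxorubicin WT, 100% in mock KO and 50.6% in doxorubicin KO cells. Each of the 2 doxorubicin libraries thus had 1 H3K4me3 region of the stretch free of H3K27me3, at different places, where mock KO had the mark.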

How the data were processed

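The peak lists of 8 ChIP-seq libraries were used, 1 per mark and condition. Inputs were sequenced in 4 libraries, not used here. Per the submitters' processing notes, the tools were Bowtie 0.12.7 and MACS 1.4.2 and the build was mm9, with no settings given in the sources used here. Each deposited list gives a position, a number and, per the file headers, -10 times the log10 of the p-value (a −log10 scale multiplied by 10), with no value under 80.01. Starts were taken to count from 0, and positions are printed counting from 1. Overlapping peaks of a library were joined before covered length was counted. Regions were made by joining the peaks of a mark that overlapped in any of its 4 lists, and every region and peak of the window was open to description by this rule. The HoxB window, the stretch and the lists were chosen with earlier results of these data known, and the tiles, the 50-kb stretches, the widest peaks, the region lengths and the window without the stretch were added after the peaks had been seen. Alternatives were a score of at least 100, equal numbers of top peaks (14326 for H3K4me3, 16160 for H3K27me3), joining within 3 kb, an overlap of 50%, sharing within 1 kb, a window 25 kb shorter at each end, and bins of 5 or 20 kb. Each of 7 interval rules, tested on 3000 simulated peaks, gave back what was put in. Gene-level values, fibroblast markers and markers of other cell types, which were planned, were left out because no mm9 annotation was used. Python 3.11.15, numpy 2.4.6, pandas 2.3.3 and matplotlib 3.10.9 were used.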

Additional observations from a re-analysis of the deposited data

Results flagged for a closer look

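Effects of opposite sign in the 2 groups of a contrast were looked for in covered length, and none of these differences was tested, since each rests on 1 library per condition. H3K27me3 coverage of the HoxB window was 47.9 kb longer with doxorubicin in WT cells, and the difference was -50.1 kb in KO cells. In the 87.7-kb stretch alone the doxorubicin differences were 64.0 kb in WT and -38.1 kb in KO cells. KO against WT gave 68.1 kb in mock and -29.8 kb in doxorubicin-treated cells for the window, and 85.0 kb and -17.2 kb for the stretch. All 4 pairs rest on the mock WT library, which has no peak in the stretch. For H3K4me3 on the Hoxb1 side of the stretch, KO against WT gave 0.2 kb in mock and -0.1 kb in doxorubicin-treated cells, a pair of differences close to 0.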

How the results depend on the processing

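Of 160 alternative values for 52 results, 137 stayed within 1.5 times the reported value and 23 did not, and for these the cause was not tested beyond what each setting does by construction. No paired analysis was possible because each group holds 1 library. The H3K27me3 coverage of the stretch stayed within that limit in every library with a score of at least 100, with equal numbers of top peaks and with peaks joined within 3 kb. Without the stretch, H3K27me3 coverage of the window was 104.3 kb in doxorubicin WT, 103.6 kb in mock KO and 91.6 kb in doxorubicin KO cells. Mock WT, at 120.4 kb, was then the highest, and its list also had the longest H3K27me3 coverage over the whole genome. With 5-kb bins, 5 kb of the window counted as having H3K27me3 in mock WT and none in doxorubicin WT, 5 kb in mock KO and none in doxorubicin KO, 5 kb in mock WT and none in mock KO, and 5 kb as having H3K4me3 in doxorubicin KO alone against mock KO, in place of 0. An overlap of 50% gave, for H3K27me3, 10 lost peaks in doxorubicin KO against mock KO, 5 lost in mock KO against mock WT, and 7 gained and 14 lost in doxorubicin KO against doxorubicin WT. For H3K4me3 it gave 7 gained in doxorubicin KO against mock KO, 4 lost in mock KO against mock WT, and 2 gained and 1 lost in doxorubicin KO against doxorubicin WT. Sharing within 1 kb left, for H3K27me3, 0 gained in doxorubicin KO against mock KO, 1 lost in mock KO against mock WT, and 2 gained and 3 lost in doxorubicin KO against doxorubicin WT. For H3K4me3 it left 0 gained and 1 lost in mock KO against mock WT. Equal numbers of top peaks gave 1 lost H3K4me3 peak in mock KO against mock WT and 2 gained in doxorubicin KO against doxorubicin WT. These counts of gained and lost peaks have no share of the whole lists under the same setting beside them. Read depth is unknown, so what it limits could not be measured.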
